A study of Mus musculus with 10 samples.

Results

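The expression of 10 smooth muscle contractile genes, Acta2, Actg2, Myh11, Des, Tagln, Cnn1, Tpm1, Tpm2, Mylk and Smtn, was examined in mouse samples labelled as control and as conditional knockout of Rnf20 in Sertoli cells. The genes were chosen by their symbols, and all 10 are among the 17816 genes of the day 7 table and the 20007 genes of the adult table. All 10 also passed the filter on low values in both tables, where 12880 and 15919 genes were tested. The day 7 samples were cells isolated as Sertoli cells from mouse testes at 7 days after birth. Of these, 2 were labelled WT, which the study's text gives as Rnf20 Flox/Flox, and 2 as RNF20 conditional knockout, the Amh-Rnf20-/-. The day 7 age is taken from the sample titles, while the growth protocol label names adult tissue for all samples. The adult samples were RNA of whole testis, 3 labelled WT and 3 labelled as RNF20 conditional knockout, with no age in days and no further allele given. No group was given an agent. In the Amh-Rnf20-/- mice, a Cre driven by the Amh promoter, which is active in Sertoli cells, removes a floxed part of Rnf20, so that the peritubular cells themselves are not the cells in which the gene is deleted by design. The cells of day 7 were grown in culture and passaged before use, and no step that removes peritubular cells is described. For day 7 the methods give 3 individuals in each group, without saying how they relate to the 2 samples analysed here, and for the adult samples nothing says that they came from separate animals. The p-values measure the spread between these samples, which may be technical.

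Each seminiferous tubule is wrapped by peritubular myoid cells, flat cells with the contractile machinery of smooth muscle, which move fluid and sperm along the tubule. In smooth muscle, myosin pulls on filaments of smooth muscle actin once its regulatory light chain has been phosphorylated by myosin light chain kinase, and tropomyosin, calponin, transgelin, smoothelin and desmin bind, stabilise or anchor those filaments. The same genes are used by vascular smooth muscle and, in culture, by activated fibroblasts and other mesenchymal cells, and many of them are driven by serum response factor, which binds a CArG box and is assisted by myocardin-family coactivators.

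The 2 smooth muscle actins are shown first because they moved apart in the adult samples, and because close copies of a gene can share reads. The alpha form, Acta2, lies on the minus strand at chr19:34240336-34255585 and the gamma form, Actg2, on the minus strand at chr6:83512909-83536251 (GRCm38.p6). The last 120 coding bases before the stop codon are given below, 5′ to 3′, from the GENCODE transcripts on GRCm38, with the positions at which they differ in capitals. They lie within 1 coding exon of each gene, at chr19:34241670-34241789 and chr6:83512988-83513107.
Acta2: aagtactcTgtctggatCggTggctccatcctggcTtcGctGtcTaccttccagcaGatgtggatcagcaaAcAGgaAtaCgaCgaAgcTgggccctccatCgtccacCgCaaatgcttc
Actg2: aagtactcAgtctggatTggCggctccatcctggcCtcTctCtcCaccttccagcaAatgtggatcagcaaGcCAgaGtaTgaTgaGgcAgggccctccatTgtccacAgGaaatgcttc

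The stretches differed at 19 of 120 positions, and the whole coding sequences matched at 952 of 1128 aligned bases (84.4%). Cutting each principal transcript into every word of 100 bases gave 1936 words for Acta2 and 1234 for Actg2, and none of them occurred in a transcript of another gene. The same held for the other members, with 0 shared words for each of the 10. Acta2 also matched the cytoplasmic beta-actin gene Actb at 83.3% of coding bases and the skeletal actin gene Acta1 at 85.4%. Myh11 matched Myh9 at 75.1% and Tpm1 matched Tpm2 at 75.9%.

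The 250 bases upstream of the start sites in the RefSeq table (GRCm38.p6) were searched on both strands for the CArG box, the binding motif of serum response factor, and for TATAAA. An entry was found for 7 of the 10 members, with none for Actg2, Myh11 and Tagln. An exact CArG box was present in 1.47% of 32851 windows and in 0 of the 7 members. A CArG box with 1 G or C in its core was present in 7.24% of windows and in 1 member, Acta2, which held it at chr19:34255448-34255457 and at chr19:34255398-34255407. TATAAA was present in 12.4% of windows and in 0 of the 7 members. The stretch of the Acta2 window with both matches, chr19:34255378-34255477 on the minus strand, is shown with the matches in capitals. It lies inside the Acta2 span printed above, as the start site used for the window is not the outer end of that span.
Acta2 promoter: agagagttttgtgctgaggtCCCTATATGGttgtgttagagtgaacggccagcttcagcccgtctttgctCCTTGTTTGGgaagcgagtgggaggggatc

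The samples were sequenced to a similar depth, between 17477268 and 17705347 counts at day 7 and from 15431912 to 16574144 for the adult tissue. Levels are given in FPKM, read fragments relative to the length of the gene and the size of the library, and a difference was called at a Benjamini-Hochberg adjusted p under 0.05. The scaling factors of the TMM method, which sets the bulk of genes level between samples, were 0.984 to 1.02 at day 7. In adult testis they were 0.710 to 0.761 in the controls against 1.27 to 1.42 in the knockouts, so values scaled to the total count alone, as FPKM are, placed the median of all genes 0.87 higher in the knockouts on the log2 scale, against 0.01 after TMM scaling and -0.19 after median-ratio scaling. Fold changes are given after TMM scaling. Rnf20 did not settle the labels in adult testis. It was listed at 16.6 and 16.0 FPKM in the day 7 controls and at 10.2 and 12.6 in the knockouts, a log2 difference of -0.49 (SE 0.12, adjusted p = 0.222). In the adult samples labelled WT it was at 4.89, 3.32 and 4.09 FPKM, and at 9.16, 5.76 and 9.85 in those labelled as knockout (log2 fold change 0.12, SE 0.27, adjusted p = 0.688). In the adult comparison, knockout and control therefore stand for the libraries so labelled. Those libraries differed by label in their spermatid genes, with 8 of 8 lower in the libraries labelled knockout, as given with Actg2. The paper's histology describes tubules of the Amh-Rnf20-/- mice without round or elongated spermatids, which runs the way the labels say.

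Adult knockout 1 stood apart from its group, and the 2 day 7 knockouts differed from each other, so that neither of those 2 can be called the odd one. Knockout 1 at day 7 held the Sertoli cell gene Cldn11 at 14.0 FPKM, against 150.3 in knockout 2 and 228.9 and 213.7 in the controls. Adult knockout 1 held the Sertoli cell gene Sox9 at 1.2 FPKM against 9.86 and 12.7 in the other knockouts, and Cldn11 at 32.8 against 226.6 and 293.4. The counts of called members are also given without these libraries.

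At day 7, all 10 contractile genes were listed at higher levels in both knockout samples than in both control samples, by 1.28-fold for Tpm1 and Smtn to 4.24-fold for Des. Without knockout 1 the log2 fold change of Des was 1.11 in place of 2.08, below that of Myh11 (1.80) in the same fit. None of these differences passed the test across all genes. The edgeR quasi-likelihood test called 0 of 12880 genes (0%) at an adjusted p under 0.05, members included, and the lowest adjusted p of any gene was 0.0961. At an unadjusted p under 0.05, 10 of 10 members were higher in the knockouts, where 8.52% of all genes tested were. The median log2 fold change of the members was 0.78, against -0.0039 over all genes. In FPKM the 4 samples separated with the knockouts above in 10 of 10 members and in 19.7% of all genes, and after TMM scaling in 10 of 10 and in 24.8%.

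The thin filament was represented by Acta2 and Actg2. Acta2 had 1097 and 1058 FPKM in the controls against 2134 and 2091 in the knockouts. The knockout samples were close to each other and above the controls, with a log2 fold change of 1.01 (SE 0.08, adjusted p = 0.119). The level ranked Acta2 at positions 89 and 94 among all genes in the controls and at 24 and 40 in the knockouts. Actg2, the actin of visceral smooth muscle, had 82.7 and 61.7 FPKM in the controls against 125.9 and 121.1 in the knockouts (log2 fold change 0.81, SE 0.16, adjusted p = 0.173). Acta2 exceeded Actg2 by 13.3 to 17.2 times in the controls and by 16.9 to 17.3 times in the knockouts, ranges that overlapped.

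The thick filament gene and its kinase were also higher in both knockouts than in both controls. Myh11, the smooth muscle myosin heavy chain and a gene restricted to differentiated smooth muscle in most tissues, had 14.0 and 10.9 FPKM in the controls against 32.0 and 41.2 in the knockouts. Its log2 fold change was 1.65 (SE 0.17, adjusted p = 0.119). Mylk, the myosin light chain kinase, had 60.2 and 57.6 FPKM in the controls against 91.5 and 90.1 in the knockouts (log2 fold change 0.75, SE 0.08, adjusted p = 0.120).

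Tropomyosins lie along the actin filament and control the access of myosin to it. Tpm1 had 1618 and 1661 FPKM in the controls against 1931 and 2155 in the knockouts, and Tpm2 had 218 and 207 against 269 and 297. Their log2 fold changes were 0.36 (SE 0.08) and 0.47 (SE 0.09), the groups not overlapping in either, with adjusted p of 0.206 and 0.160. Tpm1 was among the most abundant transcripts of every day 7 sample, at rank 31 to 52.

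The actin-binding members differed in the size of the difference. Tagln, transgelin or SM22, had 799 and 753 FPKM in the controls against 1160 and 1286 in the knockouts (log2 fold change 0.69, SE 0.09, adjusted p = 0.132). Cnn1, the calponin of smooth muscle, had 25.4 and 18.7 FPKM in the controls against 40.2 and 43.3 in the knockouts (0.95, SE 0.17, adjusted p = 0.159). Smtn, smoothelin, had 48.1 and 47.9 against 59.63 and 59.95 (0.36, SE 0.07, adjusted p = 0.173), a small difference with little spread inside either group.

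Des encodes desmin, the muscle intermediate filament protein. It had 11.2 and 8.61 FPKM in the controls, and 60.9 in knockout 1 and 20.9 in knockout 2. The 2 knockout samples differed by 1.54 on the log2 scale of TMM-scaled counts, more than any other member, and the log2 fold change of 2.08 had an SE of 0.56 (adjusted p = 0.232). The same library, knockout 1, was the one with low Cldn11. Over the 10 members the knockout samples differed by a median of 0.13 on that scale, against 0.21 over all genes tested.

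**Figure D1:**
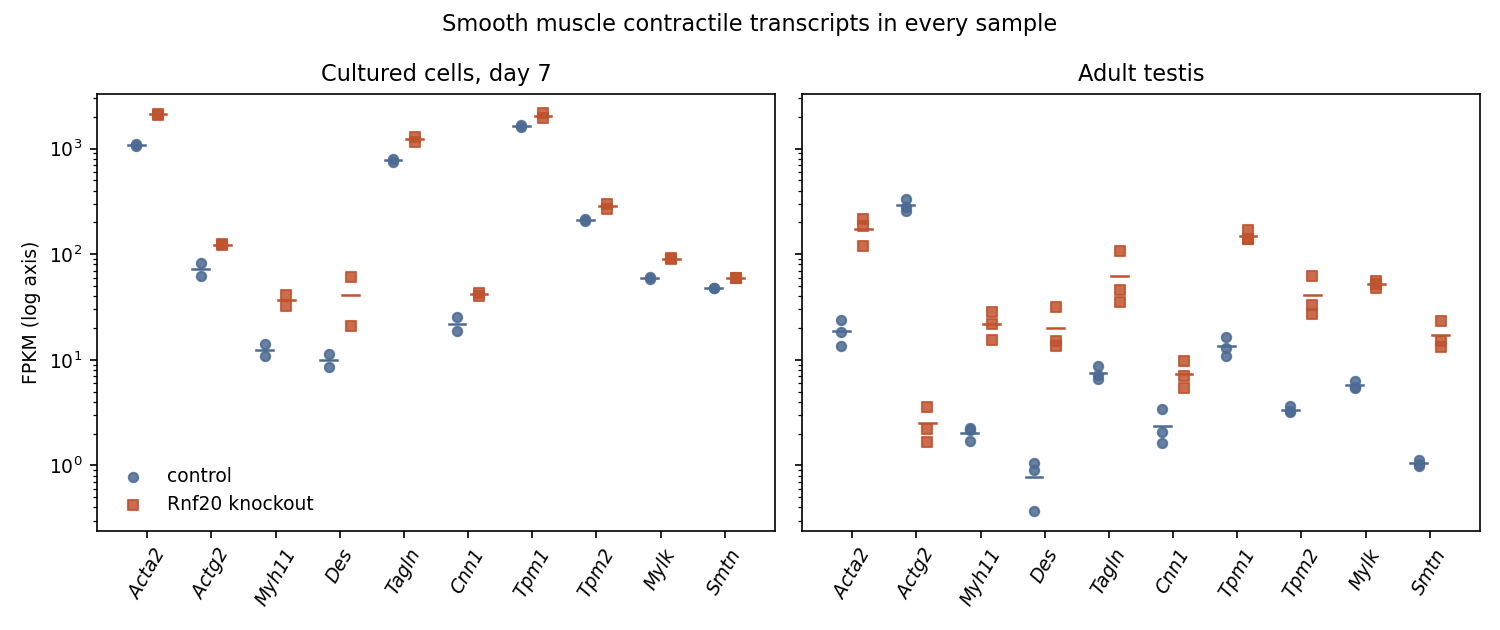
FPKM of the 10 contractile genes (log axis) in each sample, day 7 cells on the left and adult testis on the right, with circles for controls, squares for knockouts and short lines for group means. At day 7 every knockout point lies above the control points of its gene, and in adult testis the knockout points of Actg2 (1.67 to 3.60) lie far below its controls (255.0 to 335.4).

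The call at day 7 rested on the tool and on the spread between the 2 knockout libraries. DESeq2 called 8 of 10 members higher, all but Des and Smtn, where it called 3% of all genes tested higher. Leaving out knockout 1, edgeR called 10 of 10 members higher against 9.74% of all genes, and leaving out knockout 2 it called 10 of 10 against 21% of all genes. In those fits the lone knockout sample is assumed to vary like the controls.

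The order of levels among the members can be read in FPKM, which are scaled by length. In the day 7 controls it ran Tpm1, Acta2, Tagln, Tpm2, Actg2, Mylk, Smtn, Cnn1, Myh11 and Des, and only the last pair overlapped between samples. In the knockouts the ranges of Acta2 and Tpm1 overlapped, and the range of Des overlapped those of Smtn, Cnn1 and Myh11, while the remaining neighbours other than Cnn1 and Myh11 kept apart.

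In adult testis, 8 of the 10 members rose in the knockouts, 1 fell and 1 did not pass the test. The background was large, since 40.9% of all genes tested were called higher and 40.6% lower. The rises ran from 4.11-fold for Mylk to 14.5-fold for Des after TMM scaling, and Actg2 was 213-fold lower. Leaving out any 1 library, adult knockout 1 included, gave the same counts of 8 and 1. In FPKM the groups separated with the knockouts above in 9 members, where 54.9% of all genes did so, and below in 1 member, where 32.4% did so. After TMM scaling the counts were 8 members above, against 42.4% of genes, and 1 below, against 43.1%. The median of the 10 was 2.49 on the log2 scale.

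Actg2 differed from every other member. The adult controls had 255, 335 and 278 FPKM, from 4475 to 5811 counts, and the knockouts 1.67, 2.22 and 3.60 FPKM, from 28 to 59 counts. The highest knockout stood far below the lowest control, at a log2 fold change of -7.73 (SE 0.38, adjusted p = 2.9e-05). A larger fall was seen in 409 of the 15919 genes tested. Actg2 made up 79.6% to 86.2% of the summed FPKM of the 10 members in the controls and 0.237% to 0.696% in the knockouts. The Actg2 transcript is also known from postmeiotic germ cells of the mouse testis, in addition to smooth muscle. Genes of spermatids moved with it. A list of 8 such genes, Prm1 and Tnp1 among them, summed to 123100 to 191600 FPKM in the controls. In knockouts 1, 2 and 3 it summed to 3.38, 86.0 and 45.4. Of the list, 8 of 8 were called lower, where 40.6% of all genes were. Their median log2 fold change was -11.1, and -11.8 to -10.4 with single samples left out. The part of this list in the fall of Actg2 was not tested.

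Acta2 moved the other way. It had 23.6, 18.5 and 13.6 FPKM in the controls and 216.5, 119.7 and 184.8 in the knockouts, with no overlap and a log2 fold change of 2.39 (SE 0.32, adjusted p = 0.000622). The ratio of Acta2 to Actg2 inside a sample, which no scaling can change, was 0.0491 to 0.0926 in the controls against 51.3 to 130 in the knockouts. At the coding stretches printed above, the transcripts differ at 19 of 120 bases, and the pair shared no word of 100 bases.

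Myh11 had 2.14, 2.28 and 1.71 FPKM in the adult controls and 28.4, 15.36 and 21.7 in the knockouts. It rose by 2.60 on the log2 scale (SE 0.29, adjusted p = 0.0003). Mylk had 6.27, 5.39 and 5.54 FPKM against 55.2, 48.4 and 52.5, the tightest knockout group of the 10 members by SD over mean. Its log2 fold change was 2.04 (SE 0.14, adjusted p = 5.78e-05).

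Tpm1 had 16.3, 13.02 and 10.8 FPKM in the controls and 169.1, 140.4 and 138.5 in the knockouts (log2 fold change 2.64, SE 0.22). Tpm2 had 3.65, 3.24 and 3.22 FPKM against 61.6, 27.3 and 33.1 (2.61, SE 0.37), with knockout 1 the highest sample. Both tropomyosins passed the test, with adjusted p of 0.000107 and 0.000808.

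Tagln had 8.65, 7.13 and 6.51 FPKM in the controls and 107.3, 35.1 and 45.5 in the knockouts (log2 fold change 2.24, SE 0.48, adjusted p = 0.0051). Smtn had 1.04, 0.99 and 1.12 FPKM against 23.1, 13.2 and 15.1 (3.17, SE 0.28, adjusted p = 0.000127). Cnn1 was the exception among the genes listed at higher FPKM. It had 3.40, 2.07 and 1.64 FPKM in the controls and 9.72, 5.42 and 7.03 in the knockouts, but after TMM scaling control 1 (5.17 TMM-scaled counts in CPM) lay above knockout 2 (4.81), and the log2 fold change of 0.77 (SE 0.35) did not pass the test (adjusted p = 0.080). With the total count as the only scaling it was 1.61 (adjusted p = 0.00469), relative to a median of 0.87 for all genes.

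Des had 0.37, 0.91 and 1.05 FPKM in the adult controls, from 17 to 48 counts, and 31.9, 13.5 and 15.2 in the knockouts. It had the largest rise of the members, 3.86 on the log2 scale (SE 0.56, adjusted p = 0.000946), and again the highest sample was knockout 1. Between adult knockouts 1 and 2 the members differed by a median of 0.90 on the log2 scale of TMM-scaled counts, against 0.34 over all genes tested. Knockouts 2 and 3 differed by 0.23, against 0.17. Without knockout 1 the median log2 fold change of the members was 2.26.

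**Figure D2:**
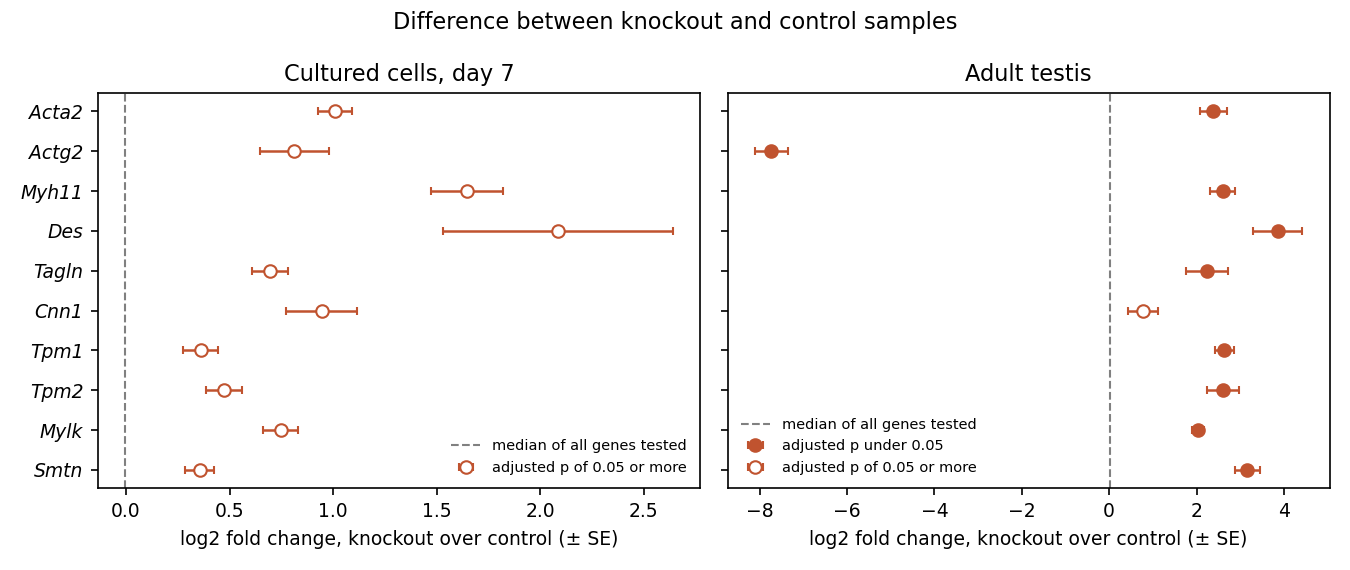
The log2 fold change of each contractile gene, knockout over control, with its SE, at day 7 on the left and in adult testis on the right, on different horizontal scales. Filled points have an adjusted p under 0.05 and the dashed line is the median of all genes tested. All 10 points lie right of the line at day 7, none of them filled, and in adult testis 8 filled points lie right of it, Actg2 at -7.73 lies left, and Cnn1 at 0.77 is open.

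The order of levels in adult testis changed with Actg2. In the controls Actg2 stood first, followed by Acta2 and Tpm1, whose ranges overlapped, then Tagln, Mylk and Tpm2. Tpm2 and Cnn1 overlapped, as did Cnn1 with Myh11 and Smtn with Des, at the lower end. In the knockouts Acta2 and Tpm1 again overlapped at the top, Tagln, Mylk and Tpm2 overlapped, Tpm2 overlapped Myh11 and Des, and so did Myh11, Des and Smtn with each other, with Cnn1 at 5.42 to 9.72 FPKM below them and Actg2 last. The members other than Actg2 summed to 65.5, 53.5 and 45.2 FPKM in the controls and to 702.7, 418.4 and 513.4 in the knockouts. In bulk RNA, fewer cells of a type and less RNA per cell cannot be told apart.

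Ratios within a sample compare a member with a cytoplasmic counterpart, the form that most cells use for shape, adhesion and migration. Levels are per gene, so isoforms of a gene, such as those of Tpm1 and Tpm2, are not told apart. There were 15 ratios in each table. The exact permutation test on them cannot give a p under 0.333 at day 7 or under 0.1 in adult testis, so they are described by their ranges. At day 7 the ratio of Acta2 to Actb was 0.612 and 0.642 in the controls against 0.937 and 1 in the knockouts. For Myh11 to the non-muscle myosin gene Myh10 it was 0.464 and 0.581 against 1.30 and 1.69. For Tagln to Tagln2 it was 0.866 and 0.951 against 1.42 and 1.79. In 11 of 11 ratios of a member to a counterpart the day 7 knockouts lay above the controls.

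In adult testis these ratios parted. The ratio of Acta2 to Actb was 0.0493 to 0.0781 in the controls against 0.413 to 0.606 in the knockouts, and that of Myh11 to Myh10 0.163 to 0.267 against 5.93 to 9.53. The order turned for Myh11 against Myh9, the other non-muscle myosin, at 2.63 to 4.65 in the controls against 0.980 to 1.49 in the knockouts. Cnn1 also fell behind its relatives, at 1.10 to 1.62 times Cnn2 in the controls against 0.205 to 0.263 times in the knockouts. The ratios of Tpm1 to Tpm4, Tpm2 to Tpm4, Tagln to Tagln2 and Des to Vim overlapped between the groups.

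**Figure D3:**
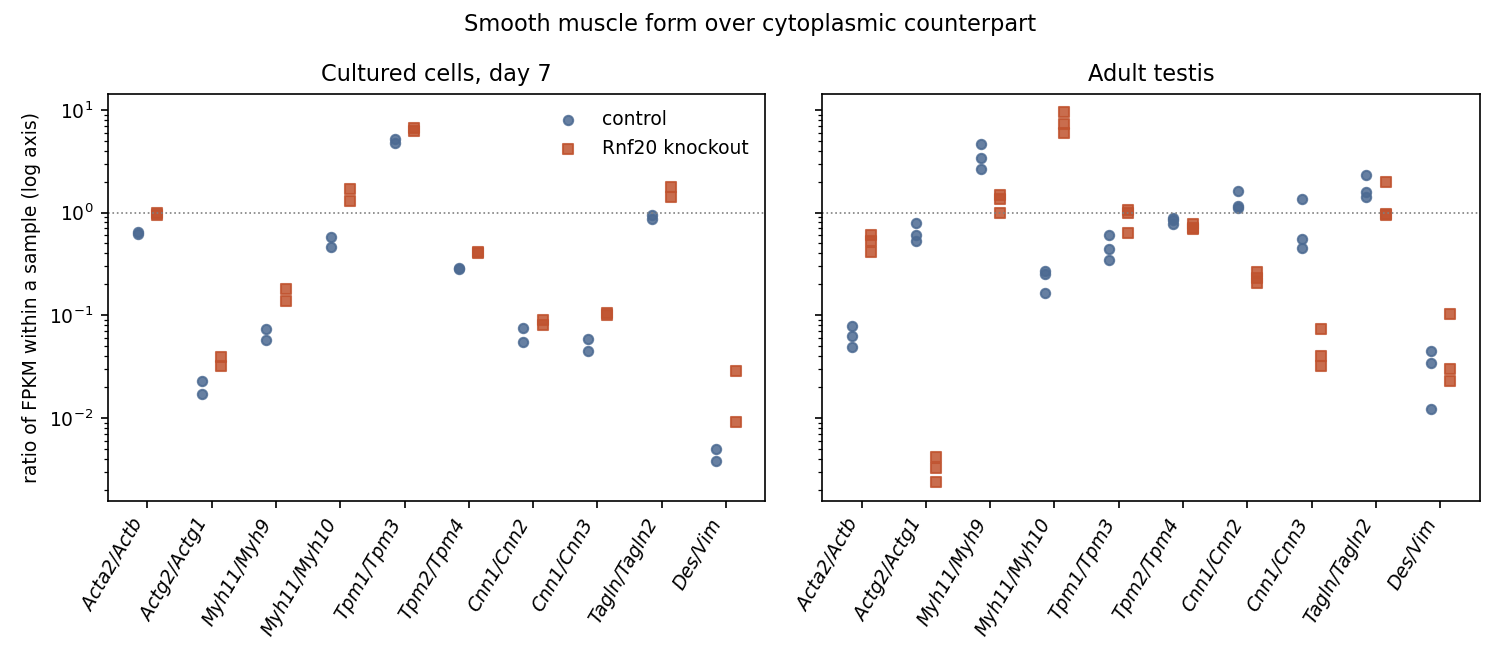
Ratio of the FPKM of a member to that of a cytoplasmic counterpart inside each sample (log axis), with circles for controls, squares for knockouts and a dotted line at equal levels. At day 7 all squares lie above the circles, and in adult testis Acta2 to Actb rises from at most 0.0781 to at least 0.413 while Actg2 to Actg1 drops from at least 0.532 to at most 0.00412.

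At day 7 the counterparts had a median log2 fold change of 0.02. The edgeR test called 0 of the 10. DESeq2 called 2 higher, Cnn2 and Actb, where it called 3% of all genes tested higher. The median was 0.088 without knockout 1 and -0.0087 without knockout 2. Cnn2 was at 336 and 339 FPKM in the controls against 503 and 485 in the knockouts (0.59, SE 0.07, adjusted p = 0.132), and Actb at 1709 and 1730 against 2127 and 2231 (0.38, SE 0.07, adjusted p = 0.165). Myh9 had a log2 fold change of 0.31 (SE 0.07, adjusted p = 0.196). The knockout and control values of Actg1, Vim, Tpm3, Tpm4, Cnn3 and Tagln2 overlapped. In adult testis 7 of 10 were called higher and 2 lower, where 40.9% and 40.6% of all genes were, with a median of 2.74. Cnn3 rose by 4.70 (SE 0.24), Myh9 by 3.99 (SE 0.18), Cnn2 by 3.30 (SE 0.30) and Vim by 3.29 (SE 0.30). Myh10 fell by 2.53 (SE 0.16, adjusted p = 4.48e-05), from 8.01 to 10.5 FPKM to 2.59 to 3.01. The direction of the cytoplasmic actins hung on the scaling. Actb had a log2 fold change of -0.67 (adjusted p = 0.0168) after TMM scaling and of 0.19 (adjusted p = 0.327) with the total count alone, and Actg1 of -0.13 (adjusted p = 0.573) and 0.73 (adjusted p = 0.0115). The call of Actb was lost without knockout 2 (adjusted p = 0.0742), without knockout 3 (0.0645) and with the replicate number as a block (0.0566), and DESeq2 called Actg1 lower (-0.33, adjusted p = 0.00832).

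Other parts of the contractile apparatus were covered by a list of 22 genes, of which 21 were tested in each table. At day 7 edgeR called 0 of them, with a median log2 fold change of 0.21 against 0.78 for the members. DESeq2 called 5 higher, where it called 3% of all genes tested higher. Without knockout 1 the list's median was 0.11, and without knockout 2 it was 0.34. Its most abundant gene, the light chain Myl6, had 1864 and 1884 FPKM in the controls against 1697 and 2114 in the knockouts, and the groups overlapped. Myl9, the regulatory light chain of smooth muscle, had 485 and 465 FPKM against 561 and 687 (0.43, SE 0.11, adjusted p = 0.231). The largest differences were those of Itga8, an integrin subunit of contractile cells, at 0.31 and 0.29 FPKM against 2.26 and 2 (2.88, SE 0.20), of Pdlim3, a protein of the actinin scaffold, at 10.5 and 11.5 against 48.3 and 42.9 (2.09, SE 0.12), and of Lmod1, the leiomodin that nucleates actin in smooth muscle, at 9.42 and 6.21 against 23.5 and 19.6 (1.501, SE 0.24). Their adjusted p were 0.119, 0.119 and 0.141, and DESeq2 called all 3. Itga8 passed the filter of 0.5 FPKM through the knockouts alone, so its difference is descriptive.

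In adult testis 17 of the 21 were called higher and 0 lower, where 40.9% and 40.6% of all genes were. The median was 1.99, and without knockout 1 the count called higher was 20. Ppp1r14a, the inhibitor of myosin phosphatase also called CPI-17, had the largest change, from 19.8, 24.5 and 19.1 FPKM in the controls to 771.5, 497.5 and 295.3 in the knockouts (3.77, SE 0.43, adjusted p = 0.000317). Lmod1 rose by 3.67 (SE 0.61) and Cald1, caldesmon, by 3.36 (SE 0.35). Lmod1, at 0.10 to 0.39 FPKM in the controls, passed the filter of 0.5 FPKM through the knockouts alone, so its rise is descriptive. The same held for Itga8, Kcnmb1 and Synpo2, with control means of 0.26, 0.11 and 0.073 FPKM. All of these are counted among the 17, and their part in that count is descriptive. Among the most abundant, Myl6 rose by 1.198 (SE 0.20) and Myl9 by 1.81 (SE 0.14), each with no overlap of the groups. Those that did not pass after TMM scaling were Ppp1r12b (-0.09), Rock1 (0.25), Synm (0.86) and Vcl (1.15). With the total count alone 21 of 21 were called higher, and the value of Ppp1r12b turned to 0.76 (adjusted p = 0.00747), its FPKM having means of 3.20 in the controls against 6.32 in the knockouts with no overlap.

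Regulators of smooth muscle transcription were covered by 10 genes. At day 7 edgeR called 0 of 10, with a median log2 fold change of 0.19. DESeq2 called 1 higher, where it called 3% of all genes tested higher. Without knockout 1 the median was 0.054, and without knockout 2 it was 0.22. Fhl2, a cofactor of serum response factor, had 106.7 and 111.3 FPKM in the controls against 183.1 and 170.3 in the knockouts (0.70, SE 0.09, adjusted p = 0.132). Myocd, myocardin, was close to the filter, at 0.70 and 0.60 FPKM against 1.06 and 0.99 (0.66, SE 0.18, adjusted p = 0.245). Csrp2 and Tead1 had log2 fold changes of 0.27 and 0.30, with adjusted p of 0.367 and 0.460, and that of Tead1 was 0.052 without knockout 1.

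In adult testis 9 regulators were tested, 4 were called higher and 3 lower, near the 40.9% and 40.6% of all genes, and the median was -0.13. Without knockout 1 the median turned to 0.15, with 4 called higher and 4 lower. With the total count alone the calls were 5 higher and 1 lower and the median 0.74. Tead1 rose by 3.25 (SE 0.33), Elk1 by 2.73 (SE 0.32) and Fhl2 by 1.77 (SE 0.20). Tead1, at 0.15 to 0.35 FPKM in the controls against 3.22 to 5.56 in the knockouts, passed the filter through the knockouts alone. The rise of Tead1 is therefore descriptive. Klf4, which represses smooth muscle genes in cultured vascular cells, fell by 2.15 (SE 0.34, adjusted p = 0.00136), from 36.5 to 46.9 FPKM to 12.3 to 24.4. Srf, which encodes serum response factor itself, fell by 0.94 (SE 0.11) and Mrtfa, its coactivator, by 0.96 (SE 0.11). Both were also called lower after median-ratio scaling, but their FPKM overlapped between the groups, with means of 10.8 against 9.83 for Srf and 9.52 against 9.03 for Mrtfa. With the total count alone their log2 fold changes were -0.081 (adjusted p = 0.616) and -0.10 (adjusted p = 0.418). Csrp2 had a log2 fold change of -0.42 (adjusted p = 0.271). Without knockout 1 it was called lower, at -0.75 (edgeR adjusted p = 0.000923), while with the total count alone it was 0.41 (adjusted p = 0.235). Myocd did not pass the filter, at 0.04 to 0.34 FPKM in the controls against 0.20 to 0.37 in the knockouts.

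Markers of other cells also differed between the groups, in both directions. At day 7 a list of 8 fibroblast genes summed to 2309 and 2398 FPKM in the controls and to 4156 and 3552 in knockouts 1 and 2, with 8 of 8 at an unadjusted p under 0.05 and a median log2 fold change of 0.88, the defining collagen gene Col1a1 at 1011 and 1046 FPKM against 1718 and 1464. The list of 10 pericyte and vascular smooth muscle genes summed to 129.3 to 133.3 in the controls against 137.0 to 144.8 in the knockouts, with Pdgfrb at 36.2 and 33.4 against 56.1 and 45.4. Its members did not all lie the same way. Of the 6 tested, Notch3, Cspg4 and Pdgfrb were above the controls in both knockouts, Mcam was below them, at a mean of 37.0 FPKM against 48.8, and Heyl and Abcc9 overlapped. The 12 Sertoli cell genes summed to 1825 and 1662 in the controls and to 916.1 and 1342 in knockouts 1 and 2, at a median of -0.67 on the log2 scale (-0.32 without knockout 1 and -1.10 without knockout 2), and Sox9 was at 41.8 and 39.4 FPKM against 10.2 and 25.7. edgeR called 0 genes of these lists on all 4 samples. DESeq2 called 7 of the 8 fibroblast genes and 1 of the 6 tested pericyte genes higher, where it called 3% of all genes tested higher. It called 2 of the 12 Sertoli cell genes lower, where 1.49% of all genes were called lower. Without knockout 1 the medians were 0.64 for fibroblast genes and 0.22 for pericyte genes, and without knockout 2 they were 1.11 and 0.49. Their part in the higher levels of the contractile genes was not tested. The cells were labelled Sertoli, and their defining genes were detected in every sample, beside the Acta2 and Col1a1 levels given above. Endothelial genes had a median of -0.11 (-0.25 to 0.37 with single samples left out), with Pecam1 at 0.88 to 1.41 FPKM and the more abundant Cdh5 at a mean of 29.3 in the controls against 37.5 in the knockouts. Leydig cell genes had a median of 0.71 (0.46 to 0.96 with single samples left out) and summed to 156.1 and 161.5 FPKM against 302.3 and 213.8. Their most abundant gene, Cyp11a1, had means of 103.9 against 166.2, while Cyp17a1 was at 0 to 0.18. Of the 5 tested, DESeq2 called 2 higher, Cyp11a1 among them, where it called 3% of all genes tested higher. Medians were 0.55 for macrophage genes and 1.26 for the 3 striated muscle genes tested, and 0.11 and 0.77 without knockout 1. Without knockout 2 the macrophage and striated muscle medians were 0.95 and 1.5. DESeq2 called 0 genes of the endothelial, macrophage and striated muscle lists. The 8 tested genes of spermatogonia and spermatocytes had a median of -0.65, with Ddx4 at 5.48 and 6.93 FPKM against 3.70 and 4.12. DESeq2 called 1 of them lower, where it called 1.49% of all genes tested lower. Their median was -0.59 without knockout 1 and -0.70 without knockout 2.

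In adult testis the lists of pericyte, fibroblast, endothelial, Leydig, macrophage and Sertoli cell genes were higher in every knockout than in every control by summed FPKM. The pericyte list summed to 3.95 to 6.56 in the controls against 38.3 to 71.9 in the knockouts. Of it, 10 of 10 were called higher at a median of 3.06 (9 without control 2 or control 3, where Mcam lost its call), and Pdgfrb was at 0.21 to 0.25 FPKM against 4.61 to 12.4. Notch3, Cspg4, Pdgfrb, Kcnj8, Abcc9, Heyl and Olfr78 had control means of 0.027 to 0.33 FPKM and passed the filter through the knockouts alone. Their rises, and their part in the count of 10, are therefore descriptive. The fibroblast list summed to 45.6 to 59.2 against 1338 to 3448, with 7 called higher and 1 lower, and its highest value was that of knockout 1, which also had the highest FPKM of each of the 9 members other than Actg2. Medians were 2.85 for endothelial genes (7 of 8 called higher) and 3.92 for Leydig cell genes (8 of 8). They were 3.92 for macrophage genes (8 of 8) and 1.53 for Sertoli cell genes (5 of 12, with 1 lower). The Sertoli cell count lay near the 40.9% of all genes called higher. In FPKM 5 of the 12 separated with the knockouts above and 1 below. The most abundant of the 12, Clu, had means of 494.6 in the controls against 3740 in the knockouts. The Sertoli cell count was 11 without knockout 1, 3 without control 2 or control 3, and 10 with the total count. Striated muscle genes had a median of 0.41, with 2 called higher and 1 lower of 4 tested, and of 0.25 to 0.70 with single samples left out. The 2 called higher, Myh7 and Tnnt3, passed the filter through the knockouts alone. So did Kdr and Tie1 of the endothelial list and Cd163 of the macrophage list, and these rises are descriptive. Of 10 genes of spermatogonia and spermatocytes 4 were called lower, near the 40.6% of all genes, and 2 higher, against 40.9%. The 2 were Kit (3.51, SE 0.27) and Zbtb16 (2.22, SE 0.29), both genes of spermatogonia, Kit also of Leydig cells. Zbtb16, at a control mean of 0.26 FPKM, passed the filter through the knockouts alone, so its rise is descriptive. With single samples left out 2 to 7 were called lower, the 7 without knockout 1, and 2 were called higher each time. The median was -2.60, and -3.25 to -1.93 with single samples left out. Ddx4 was at 169.1 to 198.9 FPKM in the controls and 0.93, 21.4 and 33.6 in the knockouts. After TMM scaling, the median of the members, 2.49, lay above that of the Sertoli cell list and below those of the pericyte, fibroblast, endothelial, Leydig and macrophage lists. With limma on FPKM at a pseudocount of 1 it was 3.04, above the pericyte (1.59) and endothelial (2.33) medians. At a pseudocount of 0.1 it was 3.26, above the pericyte median of 2.99. The part of these cells in the values of the contractile genes was not tested.

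**Figure D4:**
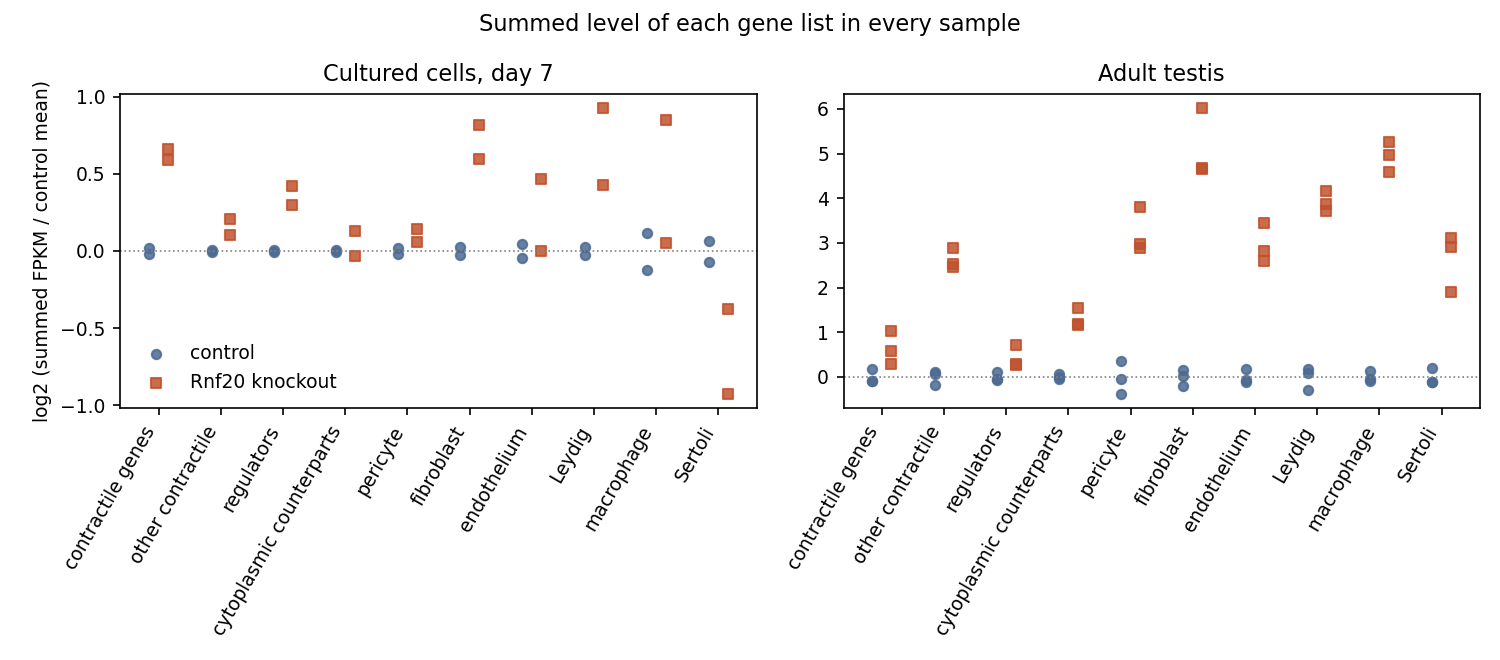
Summed FPKM of each gene list in each sample, as log2 over the mean of the controls, day 7 on the left and adult testis on the right, with circles for controls and squares for knockouts, on different vertical scales. At day 7 the contractile and fibroblast lists lie above their controls and the Sertoli list below, and in adult testis the fibroblast list, from 1338 to 3448 FPKM against 45.6 to 59.2, and the macrophage list, from 1781 to 2842 against 69.6 to 80.3, are among those far above their controls, while the contractile list lies close to its controls because Actg2 makes up at least 79.6% of their sum.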

How the data were processed

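For day 7, the authors used HISAT for the genome (GRCm38.p6), Bowtie2 for reference genes and RSEM for FPKM, with versions not given in the sources used here. The deposited tables hold estimated counts, FPKM (per length and library) and TPM (unused in tests). Between 10.7% and 13.2% of counts per sample were not whole, and counts were rounded. The tables were analysed separately. Genes reaching 0.5 FPKM in at least 2 (day 7) or 3 (adult) samples were tested with edgeR 4.0.16 (quasi-likelihood, TMM, Benjamini-Hochberg), and a call is an adjusted p under 0.05. A gene under 0.5 FPKM in every control passed through the knockouts alone, and its rise is descriptive. A standard error is the log2 fold change over the root of F. DESeq2 1.42.0, limma 3.58.1, other scalings, filters, a replicate block and leaving out each sample were alternatives, and the fit was tested on simulated data. The members and lists were chosen with earlier results of these data known. Named beside the members were the 3 most abundant and the 3 most changed genes of the contractile, regulator and counterpart lists in each table, the counterparts and the defining cell markers. Srf, Mrtfa, Ppp1r12b, Rock1, Synm, Vcl, Synpo2, Kcnmb1, Tnp1, Notch3, Cspg4, Mcam, Heyl, Abcc9, Kcnj8, Olfr78, Cdh5, Kdr, Tie1, Cd163, Myh7, Tnnt3, Cyp11a1, Kit and Zbtb16 were named after their values were seen. Same-numbered samples did not deviate together (correlations of 0.006 to 0.03). R 4.3.3 and Python 3.11.15 were used. Sequences are from RefSeq and GENCODE, and the adult processing is taken to be the same from the column names. A gene under the naming rule is not reported here.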

Additional observations from a re-analysis of the deposited data

Results flagged for a closer look

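Among the genes named with values, 6 had every knockout sample on one side of the controls at day 7 and on the other in adult testis, in both FPKM and TMM-scaled counts. These were Actg2, with log2 fold changes of 0.81 at day 7 and -7.73 in adult testis, the non-muscle myosin gene Myh10, with 0.079 and -2.53, Pecam1, with -0.45 and 3.19, Mcam, with -0.36 and 1.09 (adult adjusted p = 0.0219, and 0.0759 and 0.0764 without control 2 and control 3), Kit, with -0.69 and 3.51, and Zbtb16, with -0.57 and 2.22. Zbtb16 had means of 0.66 FPKM in the day 7 controls against 0.435 in the knockouts, and of 0.26 against 2.23 in adult testis. It passed the filter of 0.5 FPKM through the controls alone at day 7 and through the knockouts alone in the adult, so its turn is descriptive. The more abundant endothelial gene Cdh5 did not turn, with 0.40 and 3.81. With single samples left out, day 7 values ran from -0.64 to -0.13 for Mcam, from -0.87 to -0.49 for Kit and from 0.17 to 0.60 for Cdh5. The difference between the ages was not tested, the day 7 values did not pass the test, and the material differed, cultured cells at day 7 and whole testis in the adult.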

How the results depend on the processing

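No member changed direction under any of the 12 alternatives at day 7 or the 14 in adult testis. At day 7, DESeq2 called 579 genes and 8 members in place of 0, and leaving out each sample in turn gave 0 to 5136 genes and 0 to 10 members, the calls coming without knockout 1 (2757 genes) or knockout 2 (5136). With the study's thresholds 7432 adult genes passed in place of 12969. Adult Cnn1 passed with the total count (1.61), limma (1.62 and 1.32 with pseudocounts of 0.1 and 1) and the replicate block (0.77, adjusted p = 0.0487). The block changed no other member's call, and at day 7 it gave 0 genes. Same-numbered samples share only a number, with no correlated deviations. Alternatives for the genes outside the members were added after their values were seen. With the total count and with limma at pseudocounts 0.1 and 1, values turned for adult Actb (0.19, 0.19 and 0.18), Actg1 (0.73, 0.73 and 0.73) Csrp2 (0.41, 0.34 and 0.33) and Ppp1r12b (0.76, 0.94 and 0.79), and at day 7 for Vim (-0.0206, -0.0218 and -0.0218) and Tpm3 (-0.0144, -0.0320 and -0.0319). With single samples left out, day 7 values crossed 0 for Actg1 (-0.127 to 0.105), Vim (-0.0265 to 0.0611), Tpm3 (-0.0364 to 0.0886), Tpm4 (-0.120 to 0.00191), Cnn3 (-0.108 to 0.0499), Tagln2 (-0.353 to 0.115) and Myl6 (-0.0951 to 0.186), as did adult Actg1 (-0.149 to 0.0171) and Ppp1r12b (-0.175 to 0.0497). The cause of these shifts was not tested. The part of depth was not tested.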
